A study of Mus musculus with 6 samples.

Results

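The annexins in this account are 10 of the 25067 gene rows in the values deposited for mouse colonic organoids, namely Anxa1, Anxa2, Anxa3, Anxa4, Anxa5, Anxa6, Anxa8, Anxa10, Anxa11 and Anxa13. They were selected on their gene symbols with the result of this very comparison already known for some of them. Their changes are therefore described here without p-values, and a call on a member is a description only. Of the 10 members, 9 were among the 13210 genes that entered the fit, whose normalized counts averaged 10 or more, and Anxa13 fell below that minimum. The rows also hold 2 further annexins, Anxa7 and Anxa9, which are not members and are given for comparison. The question was whether a rise seen in Anxa10 was shared by the rest of the family.

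RNA was sequenced from 6 libraries of colon organoids grown from crypts of C57BL/6 mice labelled as 8 weeks old. All 6 carry the genotype Prkcif/fPrkczf/f;Villin-CreERT2, meaning that both genes of atypical protein kinase C (aPKC), Prkci and Prkcz, are floxed and that a recombinase activated by tamoxifen is driven by the promoter of Villin, an epithelial gene. Of these, 3 libraries came from organoids given 4-OH-Tamoxifen (4-OHT) at passage, labelled as double knockouts, and 3 from organoids given ethanol vehicle, labelled as wild type although they carry the same floxed alleles and Cre. RNA was taken after 3 days, and the medium of all 6 held WNT3A, EGF, Noggin and R-spondin 1. No library with 4-OHT but without Cre or the floxed alleles is among them, so loss of aPKC, Cre activity and 4-OHT itself cannot be told apart. Nothing in the labels says that the 3 libraries of a group came from separate animals or cultures, so every error given here measures only the spread between these libraries.

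Annexins are proteins that bind phospholipid membranes when calcium rises, through repeated annexin folds that follow a variable amino-terminal tail. They take part in membrane repair, in vesicle traffic and in the link between membranes and the actin cytoskeleton, and the tails of several members bind small calcium-binding proteins of the S100 and penta-EF-hand families. In the gut epithelium Anxa1 is known as a mediator that limits inflammation and aids wound closure, Anxa2 as a partner of S100a10 at the cell cortex, Anxa13 as a protein of intestinal epithelial cells, and Anxa10 as a marker of gastric epithelium and of serrated colorectal lesions.

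The stretches before the start sites are shown for 3 members, Anxa10 because it had the largest log2 fold change among the tested annexins, and Anxa1 and Anxa2 because they held the largest shares of annexin transcript per exon length. Each window runs from 250 bases before to 50 bases after the annotated start, 300 bases in all, from RefSeq on GRCm38.p6, read 5′ to 3′ on the strand of the gene. The Anxa10 window is chr8:62123144-62123443 (minus strand), the Anxa1 window chr19:20390622-20390921 (minus strand) and the Anxa2 window chr9:69453433-69453732 (plus strand). Capitals mark the letters TGANTCA, the AP-1 motif, in Anxa10 and Anxa2, and the letters CATTCC, the TEAD motif, in Anxa1.
Anxa10: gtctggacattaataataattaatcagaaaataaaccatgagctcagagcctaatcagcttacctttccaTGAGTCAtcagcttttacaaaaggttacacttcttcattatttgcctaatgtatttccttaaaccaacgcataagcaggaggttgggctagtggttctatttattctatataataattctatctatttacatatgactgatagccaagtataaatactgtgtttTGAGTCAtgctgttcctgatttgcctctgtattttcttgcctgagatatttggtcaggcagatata
Anxa1: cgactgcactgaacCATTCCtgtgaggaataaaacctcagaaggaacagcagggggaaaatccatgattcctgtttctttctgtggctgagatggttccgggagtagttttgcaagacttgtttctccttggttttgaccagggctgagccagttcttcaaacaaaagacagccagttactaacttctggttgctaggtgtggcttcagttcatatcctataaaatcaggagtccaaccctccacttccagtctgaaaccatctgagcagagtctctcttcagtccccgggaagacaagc
Anxa2: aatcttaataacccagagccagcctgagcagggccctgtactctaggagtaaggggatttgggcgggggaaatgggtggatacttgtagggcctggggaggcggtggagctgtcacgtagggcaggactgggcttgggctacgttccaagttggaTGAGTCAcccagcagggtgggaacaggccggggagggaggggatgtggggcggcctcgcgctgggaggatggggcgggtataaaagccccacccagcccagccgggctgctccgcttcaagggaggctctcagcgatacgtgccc

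The Anxa10 window held 2 matches to TGANTCA, which began 180 and 16 bases before the start site, and the Anxa2 window held 1, at 95 bases. Of all 32851 promoter windows of this length, 7.81% held at least 1 match and 0.460% held 2 or more, and of the 12834 windows of tested genes 5.50% held at least 1. The Anxa1 window held 1 match to CATTCC, at 236 bases, which 14.7% of all windows and 12.3% of those of tested genes held. No CATTCC was found in the Anxa10 and Anxa2 windows, and no TGANTCA in the Anxa1 window. All 3 windows held the letters TATAAA, at 32 bases in Anxa10 and Anxa1 and at 17 bases in Anxa2, against 13.6% of all windows and 7.52% of those of tested genes. The GC content was 34.3% in Anxa10, 47.3% in Anxa1 and 63.7% in Anxa2, and the mean over all windows was 53.8%. Windows were at hand for 9 of the 12 annexins, and those of Anxa4, Anxa5, Anxa7, Anxa8, Anxa9 and Anxa11 held neither TGANTCA nor CATTCC. Anxa3, Anxa6 and Anxa13 had no entry. The GC box, GGGCGG, stood 3 times in Anxa2, 3 times in Anxa11, once in 1 of the windows of Anxa4, and in both windows of Anxa7, and in 35.7% of all windows and 61.7% of those of tested genes. Both strands were searched for every motif and no match overlapped another motif in the printed windows. A match describes the letters of the window and is no measurement of binding.

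The deposited values are normalized counts, reads per gene divided by 1 size factor for each library, and the whole reads behind them could be recovered. The libraries held between 15804709 and 26957612 reads in the vehicle group and between 17603040 and 19588575 in the 4-OHT group. Of the targeted genes, Prkcz had a mean of 912 in vehicle and 281 in 4-OHT organoids, a log2 fold change of -1.70 (SE 0.08), and Prkci 3520 and 3021, a log2 fold change of -0.22 (SE 0.05). How many reads fell on the floxed exons was not analysed here. The 9 epithelial marker genes took 20498 to 20967 reads per 1000000 in the vehicle libraries and 26360 to 28032 in the 4-OHT libraries, with Krt8, Krt18, Krt19, Epcam, Cdh1 and Vil1 higher, Cdx2 lower, and Cdx1 and Krt20 not called. Markers of leukocytes came to at most 17.3 reads per 1000000 and those of endothelium to at most 2.86. Transcripts of plasma cells and of Paneth cells and ileum were highest in 4-OHT replicates 2 and 3, at 10.4 and 3.52 and at 46.3 and 30.8 reads per 1000000, against at most 0.0519 and 0.623 in 4-OHT replicate 1 and the vehicle libraries. Fibroblast markers reached 10.6 reads per 1000000 in 4-OHT replicate 3 and at most 3.58 elsewhere, and smooth muscle markers 2.81 and 5.57 in replicates 2 and 3 and at most 0.571 elsewhere. The part of these transcripts in the results below was not tested. Each call on a named gene that was lost without replicates 2 and 3 is given with its value there. The marker genes are an exception, since their calls were not looked up without those replicates.

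All 9 tested members were higher in 4-OHT organoids, and 0 were lower. Over all tested genes, 22.7% were called higher and 21.0% lower (limma-trend on log2 of the normalized count plus 1, adjusted p-value under 0.05), and since the members were chosen with this comparison known, nothing is read from the difference. The log2 fold changes ran from 0.17 for Anxa4 to 1.68 for Anxa10, with a median of 0.50, where the median of all tested genes was -0.01. In each of the 9 the lowest 4-OHT library lay above the highest vehicle library, as it did in 26.8% of all tested genes, and this was also so in the untested Anxa13. Among the 4413 tested genes with a vehicle mean of at least 1000, where all members but Anxa10 and Anxa13 belong, 33.7% were called higher. A log2 fold change above 0.5 together with the call was reached by 5 members, Anxa1, Anxa5, Anxa6, Anxa8 and Anxa10, and by 6.68% of all tested genes. The members just inside and just outside that limit were Anxa8 at 0.501 and Anxa3 at 0.480, less than 1 SE apart. In RNA from whole organoids a change in the share of a cell type and a change in transcript per cell cannot be told apart, and this holds for every member.

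**Figure D1:**
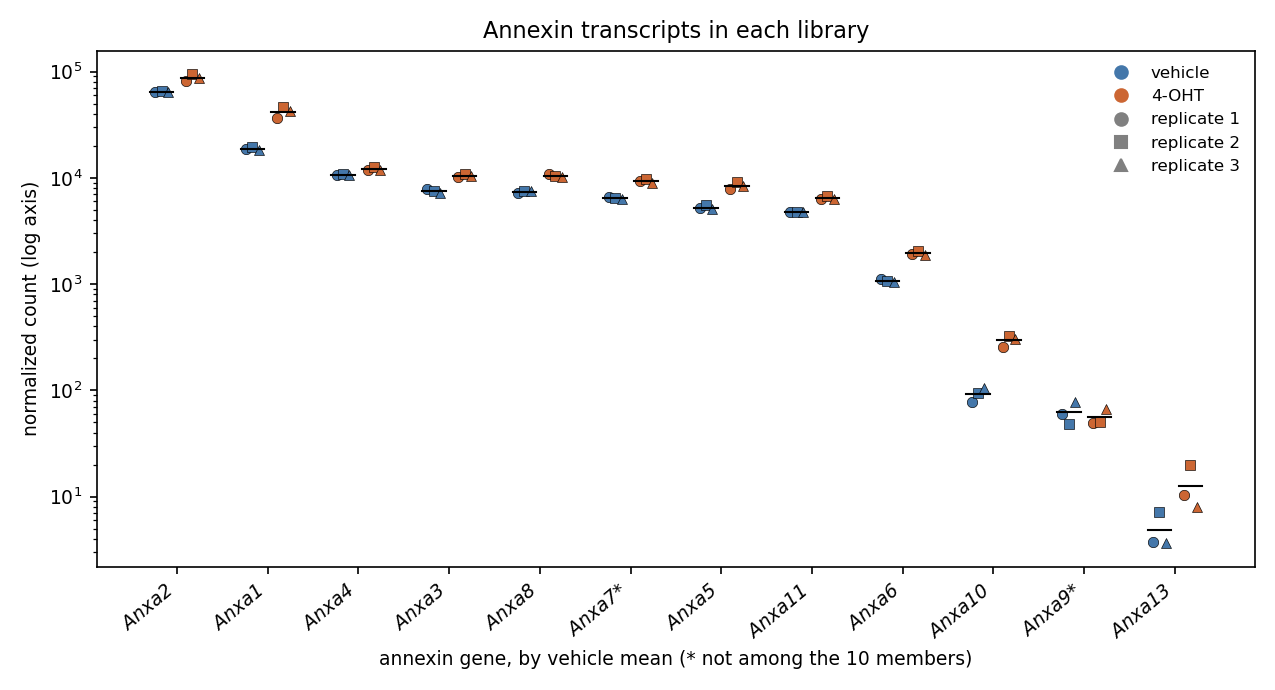
Normalized counts (log axis, reads per gene divided by the size factor of the library, not corrected for length) of the 12 annexins in the 3 vehicle (blue) and 3 4-OHT (orange) libraries, with the replicate given by the shape of the point and the group mean by a bar. The 3 orange points lie above the 3 blue points in the 10 members and in Anxa7, while those of Anxa9 overlap.

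Anxa10 lies on chromosome 8 (chr8:62057042-62123193, GRCm38.p6). Its normalized counts were 77.4, 93.6 and 104 in vehicle replicates 1, 2 and 3 and 256, 324 and 306 in 4-OHT replicates 1, 2 and 3. The lowest 4-OHT value was thus 2.46 times the highest vehicle value. The means, 91.7 ± 13.4 and 296 ± 35.3 (SD, n = 3 each), gave a log2 fold change of 1.68 (SE 0.14, 95% interval 1.39 to 1.97). Only 0.371% of the tested genes had a larger log2 fold change. Its vehicle libraries varied with a coefficient of variation of 14.7%, and counting of reads alone would give 9.98%.

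Anxa1, a ligand of formyl peptide receptors and a substrate of the EGF receptor, lies on chromosome 19 (chr19:20373434-20390671). It had normalized counts of 18557, 19616 and 18192 in the vehicle libraries and 36733, 46690 and 42323 in the 4-OHT libraries. Every 4-OHT library had at least 1.87 times the count of every vehicle library. The means of 18788 ± 740 and 41915 ± 4991 (SD, n = 3 each) gave a log2 fold change of 1.15 (SE 0.06, 95% interval 1.02 to 1.28), which 1.41% of tested genes exceeded. Its 3 listed receptor genes, Fpr1, Fpr2 and Fpr3, had no row under these symbols in the deposited values.

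Anxa6, the member with a doubled set of annexin repeats that is known from membrane repair and cholesterol traffic, lies on chromosome 11 (chr11:54978953-55033471). The vehicle libraries held 1115, 1063 and 1036 normalized counts and the 4-OHT libraries 1925, 2051 and 1888. The log2 fold change was 0.87 (SE 0.06, 95% interval 0.75 to 0.98). Anxa5, which binds exposed phosphatidylserine, lies on chromosome 3 (chr3:36448923-36475887). It had 5193, 5491 and 5076 normalized counts in vehicle and 7829, 9060 and 8330 in 4-OHT libraries, a log2 fold change of 0.68 (SE 0.05, 95% interval 0.57 to 0.78). The 95% intervals of Anxa10, Anxa1 and Anxa6 did not overlap one another, and those of Anxa6 and Anxa5 did.

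The next 4 members, Anxa8, Anxa3, Anxa2 and Anxa11, had log2 fold changes from 0.43 to 0.50 with intervals that overlapped. Anxa8, an annexin known from stratified epithelia (chr14:34085979-34100571), had 7252, 7534 and 7440 normalized counts in vehicle and 10781, 10442 and 10235 in 4-OHT libraries, a log2 fold change of 0.50 (SE 0.04). Anxa3 (chr5:96793385-96845968) had 7920, 7507 and 7167 in vehicle and 10110, 10914 and 10472 in 4-OHT libraries, a log2 fold change of 0.48 (SE 0.05). Of the 4-OHT libraries, replicate 1 was the highest for Anxa8 and the lowest for Anxa3.

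Anxa2, which forms a tetramer with S100a10 and binds plasminogen and actin, lies on chromosome 9 (chr9:69453683-69491792). Its normalized counts were 64026, 66143 and 64512 in vehicle and 81769, 94508 and 87692 in 4-OHT libraries, a log2 fold change of 0.44 (SE 0.05, 95% interval 0.33 to 0.54). The vehicle libraries lay within a coefficient of variation of 1.71%, against 7.25% in the 4-OHT libraries, with replicate 2 the highest of these. Anxa11, a carrier that ties RNA granules to lysosomes and a partner of Pdcd6 and S100a6, lies on chromosome 14 (chr14:25842127-25886804). It had 4803, 4809 and 4735 normalized counts in vehicle and 6366, 6678 and 6326 in 4-OHT libraries, a log2 fold change of 0.43 (SE 0.04). Of the stretches of 50 bases in the annotated Anxa11 transcripts, 14.6% also occur in other genes on the same strand, so its value may hold reads of other genes. The genes that shared stretches with Anxa11 on either strand were Gm2260, Gm2274 and Anxa11os. In the other members this share was at most 1.79%.

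Anxa4, an annexin known from many epithelia, had the smallest difference. Its normalized counts were 10681, 10970 and 10594 in vehicle and 11952, 12561 and 11848 in 4-OHT libraries (chr6:86736840-86793634). The lowest 4-OHT library was 1.08 times the highest vehicle library. The log2 fold change was 0.17 (SE 0.04, 95% interval 0.09 to 0.26), and 28.0% of the tested genes had a larger one. The call was lost with quantile normalization, at 0.04, and without 4-OHT replicates 2 and 3, at 0.15.

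Anxa13, the annexin known from the intestinal epithelium, was close to the limit of what these libraries could count (chr15:58341464-58389274). The vehicle libraries held 4, 10 and 3 reads and the 4-OHT libraries 10, 19 and 7. In normalized counts these were 3.73, 7.09 and 3.63, and 10.3, 19.7 and 7.97. The 3 values of 4-OHT lay above the 3 of vehicle, but the lowest was only 1.12 times the highest vehicle value. With no filter on low values its log2 fold change was 1.19, and it was not called. A library with 3 reads lies at the number taken here as the floor, which covers counting error only.

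**Figure D2:**
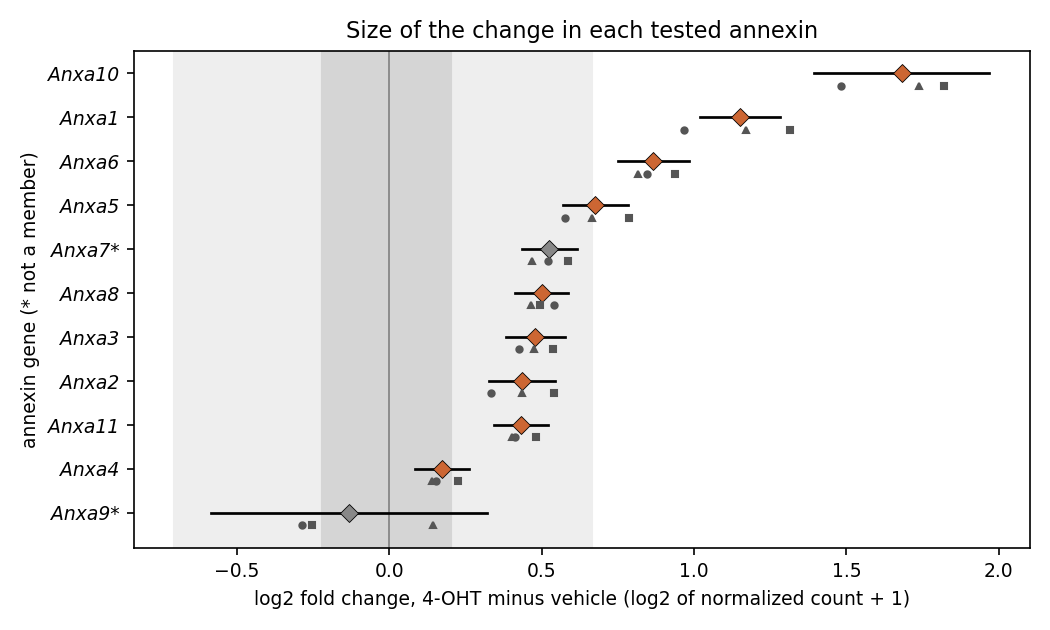
Log2 fold change of 4-OHT over vehicle organoids (horizontal axis, log2 of the normalized count plus 1) for the 11 tested annexins, with diamonds for the estimate, lines for the 95% interval and small marks for each 4-OHT replicate minus the vehicle mean; light and dark bands span the 5th to 95th and the 25th to 75th percentiles of all tested genes. Anxa10, Anxa1, Anxa6 and Anxa5 lie beyond the 95th percentile of 0.67, Anxa4 at 0.17 lies inside the dark band, which ends at 0.20, and Anxa9 (not a member) spans 0.

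Of the 2 annexins outside the member list, Anxa7 was called higher and Anxa9 was not called. Anxa7, which promotes membrane fusion in exocytosis and binds sorcin (Sri), had 6616, 6391 and 6367 normalized counts in vehicle and 9263, 9709 and 8939 in 4-OHT libraries (chr14:20455261-20480133). It rose, with a log2 fold change of 0.53 (SE 0.04, adjusted p = 1.1e-08 by limma), which puts it between Anxa5 and Anxa8. Anxa9, an annexin whose repeats have lost calcium-binding residues, had 59.7, 48.2 and 77.5 in vehicle and 49.6, 50.8 and 67.2 in 4-OHT libraries (chr3:95296093-95315180). Its groups overlapped, and its log2 fold change of -0.13 (SE 0.22, 95% interval -0.58 to 0.32, adjusted p = 0.66 by limma) was not called. That interval holds the 0.17 of Anxa4 and ends below the log2 fold changes of the other 9 tested annexins. The vehicle libraries of Anxa9 varied with a coefficient of variation of 23.8%.

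The 4-OHT libraries were compared with one another for each member. Replicate 2 was the highest of the 3 in 9 members, all except Anxa8, in which replicate 1 was, and replicate 3 was the highest in 0. Over all tested genes these replicates were the highest in 35.7%, 34.3% and 30.0%. For Anxa1 the 4-OHT replicates lay 0.97, 1.31 and 1.17 above the vehicle mean on the log2 scale, for Anxa10 1.48, 1.82 and 1.74, and for Anxa5 0.58, 0.79 and 0.67. For Anxa8 they lay at 0.54, 0.50 and 0.47. Replicate 2 is also the library with the most plasma cell and ileal transcripts, and the part of these in the annexin values was not tested. In 4-OHT replicate 1 there were 12 reads of the 8 Paneth and ileal genes and 1 read of the 3 plasma cell genes. In that library the 9 tested members lay 0.15 (Anxa4) to 1.48 (Anxa10) above the vehicle mean on the log2 scale. The median over all tested genes there was -7.2e-05.

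Levels of different annexins were compared as normalized counts per kilobase of exon. In vehicle organoids Anxa2 stood at 44847 ± 766 per kilobase and Anxa1 at 9925 ± 391 (SD, n = 3), followed by Anxa4 at 5104, Anxa8 at 3941, Anxa5 at 3035, Anxa3 at 2864, Anxa7 at 2130, Anxa11 at 1756 and Anxa6 at 430. Anxa10 at 51.4, Anxa9 at 31.3 and Anxa13 at 4.01 closed the order. Neighbours in this order lay apart in every pair except Anxa5 and Anxa3, whose libraries overlapped. The order was the same in 4-OHT organoids, with Anxa2 at 60808 ± 4406 and Anxa1 at 22142 ± 2637 (SD, n = 3), and there only the libraries of Anxa4 and Anxa8 overlapped. The length of the longest transcript in place of all exons moved Anxa3 from place 6 to place 4. Anxa10 remained low in both groups, at 166 per kilobase in 4-OHT organoids, where Anxa6, the next above it, stood at 785.

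The make-up of the family shifted from Anxa2 toward Anxa1. Of the summed level per kilobase of the 12 annexins, Anxa2 held 60.5% ± 0.36 in vehicle and 55.5% ± 0.10 in 4-OHT organoids, Anxa1 13.4% ± 0.28 and 20.2% ± 1.0, and Anxa4 6.89% and 5.26% (SD, n = 3). Anxa10 held 0.069% and 0.15%. The 12 annexins together took 0.664%, 0.678% and 0.655% of the reads of the vehicle libraries, against 0.889%, 1.00% and 0.940% of those of the 4-OHT libraries. The groups lay apart in each of these shares. The summed normalized count was 127094 ± 2290 in vehicle and 189496 ± 13016 in 4-OHT organoids (SD, n = 3), a ratio of 1.49.

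**Figure D3:**
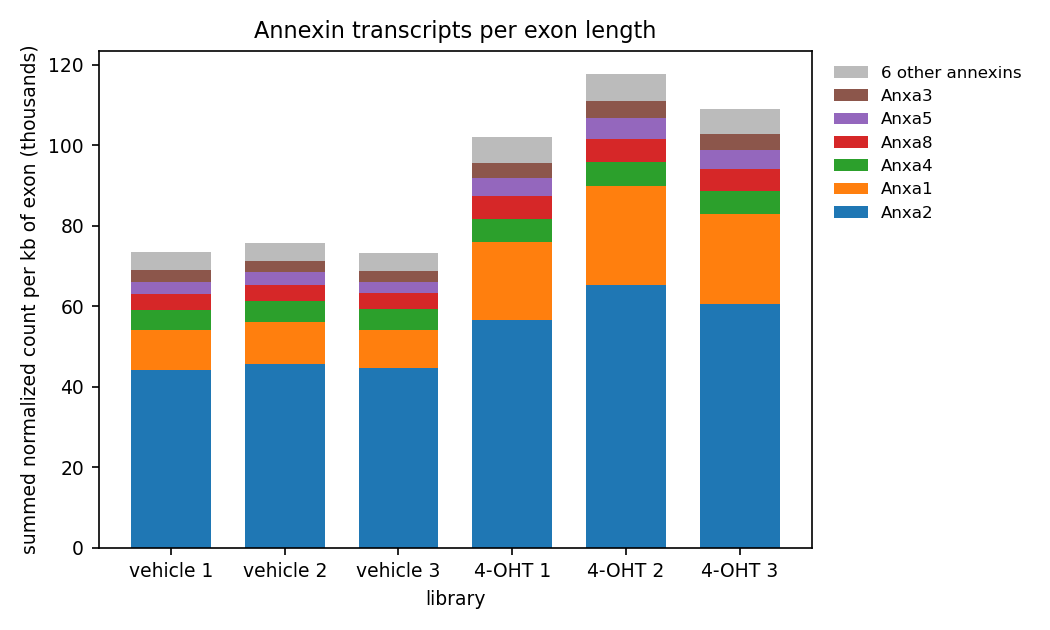
Stacked normalized counts per kilobase of exon (vertical axis, in units of 1000) of the 12 annexins in each of the 6 libraries, with the 6 most abundant annexins in colour and the other 6 in grey. Every 4-OHT bar is taller than every vehicle bar, and the Anxa1 segment widens from about 13.4% to 20.2% of the bar.

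Proteins that bind annexins were taken as a list of 8 partners, of which 7 were tested, 5 were higher and 0 lower, with a median log2 fold change of 0.41. Of all tested genes 22.7% were called higher, and 33.7% of those with a vehicle mean of at least 1000. The lists were chosen with earlier results of these data known, so nothing is read from their counts. For the same reason the adjusted p-values of listed genes, here and below, are descriptions only. S100a10, the light chain of the Anxa2 tetramer, had 8476, 8507 and 8639 normalized counts in vehicle and 11434, 13439.9 and 12349 in 4-OHT libraries, and rose by a log2 fold change of 0.54 (SE 0.05, adjusted p = 5.3e-08 by limma). The change of S100a10 was thus close in size to the 0.44 of Anxa2, with 4-OHT replicate 2 the highest for both. S100a11, which binds the tail of Anxa1, went from 17526 ± 386 to 30265 ± 549 (SD, n = 3), and its log2 fold change was 0.79 (SE 0.04, adjusted p = 2.4e-11 by limma). S100a6, which binds Anxa11 and other annexins, went from 21776 ± 1458 to 36241 ± 602, a log2 fold change of 0.74 (SE 0.05, adjusted p = 3.9e-10 by limma). The penta-EF-hand proteins Sri, a partner of Anxa7 and Anxa11, and Pdcd6 rose by log2 fold changes of 0.41 (SE 0.04, adjusted p = 1.8e-07 by limma) and 0.37 (SE 0.04, adjusted p = 1.1e-06 by limma). Gca, another penta-EF-hand protein, was at -0.13 (SE 0.13, adjusted p = 0.42 by limma). S100a4 had too few counts to be tested.

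Ahnak, the giant scaffold protein that binds the Anxa2 and S100a10 tetramer, went from 36038 ± 1569.6 to 34045 ± 2264 (SD, n = 3) with overlapping libraries. Its log2 fold change of -0.08 (SE 0.05, 95% interval -0.19 to 0.02, adjusted p = 0.20 by limma) was not called. With quantile normalization it was called lower, at -0.29. The interval ends below the log2 fold changes of Anxa2 and S100a10.

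The S100 family list, which holds 4 of the partners, had 16 genes, of which 10 were tested and 9 were higher, with a median of 0.75. Beside this, 22.7% of all tested genes were called higher, and 33.7% of those with a vehicle mean of at least 1000. The largest rises were those of S100g, an intestinal calcium-binding protein, and S100a7a. S100g had 6.53, 9.22 and 3.63 normalized counts in vehicle and 17.6, 20.7 and 26.2 in 4-OHT libraries. Its log2 fold change was 1.65 (SE 0.43), and it lost the call without 4-OHT replicates 2 and 3, at 1.39. Its vehicle mean of 6.46 lay below the minimum of 10, so S100g entered the fit only through its 4-OHT libraries. Vehicle replicate 3 held 3 reads, the number taken here as the floor, and the call on S100g is a description only. S100a7a went from 835 ± 46.2 to 1704 ± 177 (SD, n = 3), and its log2 fold change was 1.02 (SE 0.07, adjusted p = 7.8e-10 by limma). S100a9, a protein of neutrophils, was the tested gene that was not called, at -0.37 (SE 0.43, adjusted p = 0.51 by limma).

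Genes of plasma membrane repair, a process to which annexins contribute, were listed as 25 genes. Of the 23 tested, 19 were higher and 0 lower, with a median of 0.36. Beside this, 22.7% of all tested genes were called higher, and 33.7% of those with a vehicle mean of at least 1000. The largest rises were those of the subunits of calpain, a protease that calcium activates when a membrane is torn. Capn2, a catalytic subunit, went from 3562 ± 175 to 5325 ± 211 (SD, n = 3), and its log2 fold change was 0.58 (SE 0.05, adjusted p = 1.1e-08 by limma), and Capns1, the regulatory subunit, from 7805 ± 135 to 11372 ± 687, a log2 fold change of 0.54 (SE 0.05, adjusted p = 1.5e-08 by limma). The 4 tested genes that were not called were Cav1, Smpd1, Syt7 and Vps4a. Dysf and Trim72, repair proteins of muscle, had too few counts to be tested. Pdcd6 belongs to this list and to the partners.

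Anxa2 is known as a cell-surface site for plasminogen, and genes of the plasminogen system were looked up for that reason. Plau, the urokinase activator, had 121, 135 and 121 normalized counts in vehicle and 364, 371 and 405 in 4-OHT libraries, a log2 fold change of 1.59 (SE 0.11, adjusted p = 7.3e-10 by limma). Plgrkt, a plasminogen receptor, rose from 1061 ± 72.7 to 2202 ± 93.4 (SD, n = 3), with a log2 fold change of 1.05 (SE 0.06, adjusted p = 4.9e-11 by limma). These are the 2 largest rises of the list, and no count over the list is given.

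Anxa1 is known to restrain phospholipase and eicosanoid production, and of 17 eicosanoid genes 10 were tested, with 3 higher, 1 lower and a median of 0.11. Over all tested genes 22.7% were called higher and 21.0% lower. Ptgs2, the inducible cyclooxygenase, had 605, 719 and 661 normalized counts in vehicle and 1932, 1951 and 1859 in 4-OHT libraries, a log2 fold change of 1.53 (SE 0.06, adjusted p = 1.5e-12 by limma). Alox12, a lipoxygenase, had 12.1, 4.97 and 6.05 in vehicle and 24.8, 40.4 and 23.9 in 4-OHT libraries. Its log2 fold change was 1.86 (SE 0.40), and 1.16 with a pseudocount of 10. The vehicle libraries held 13, 7 and 5 reads of Alox12. Its vehicle mean of 7.72 lay below the minimum of 10, so Alox12 entered the fit only through its 4-OHT libraries, and its call is a description only. Ptges3 fell by 0.16 on the log2 scale (SE 0.05, adjusted p = 0.0082 by limma). The phospholipase Pla2g4a had a log2 fold change of 0.13 (adjusted p = 0.057 by limma) and was not called. Pla2g4c stood apart in 1 library, at 200 normalized counts in 4-OHT replicate 3 and 7.23 to 18.7 in the others, and was not called. Copines, another family of calcium-dependent membrane-binding proteins, were listed as 9 genes, of which 4 were tested and 1, Cpne5, was higher, at 0.77 (SE 0.30, adjusted p = 0.046 by limma), a call that 7 of the alternatives lost, among them the fit without 4-OHT replicates 2 and 3, at 0.48.

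**Figure D4:**
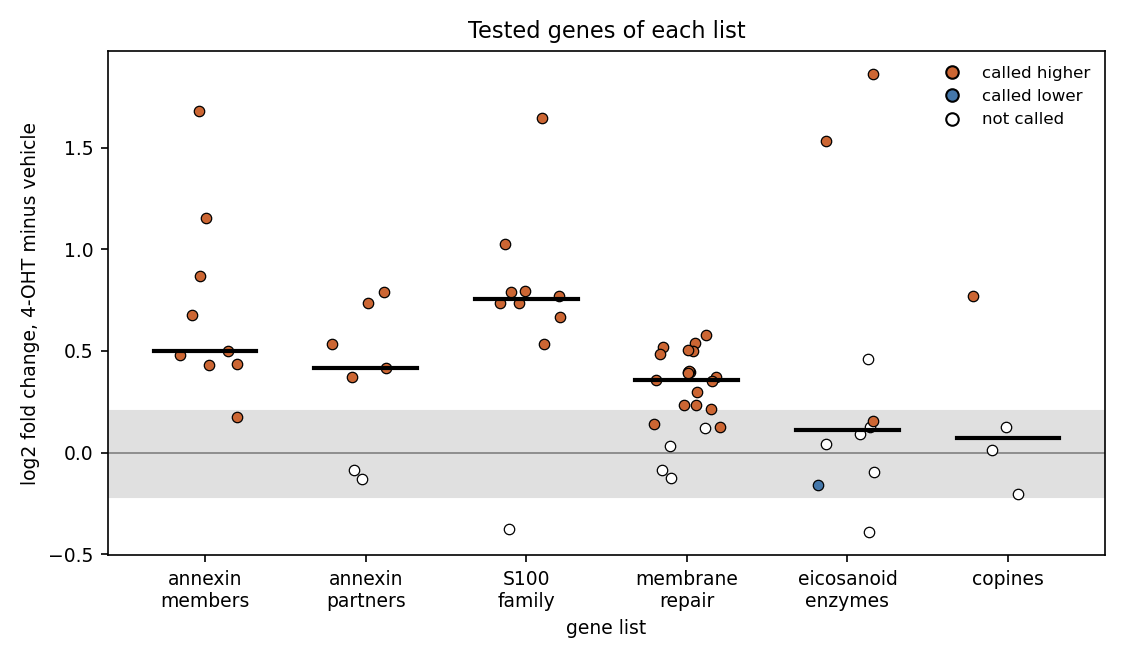
Log2 fold change of 4-OHT over vehicle organoids (vertical axis) for each tested gene of the 9 tested annexin members and 5 further gene lists, coloured by call, with a bar at the median of each list and a grey band from the 25th to the 75th percentile of all tested genes. The medians of the S100 (0.75), annexin member (0.50), partner (0.41) and membrane repair (0.36) lists lie above the band, which ends at 0.20, and those of the eicosanoid (0.11) and copine (0.07) lists lie inside it.

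The genes whose profile over the 6 libraries was most like that of Anxa10 were sought among 10987 tested genes whose normalized counts averaged 50 or more, by the root mean square difference of log2 values, each centred on its vehicle mean. The smallest difference was that of Cpe, a carboxypeptidase of prohormone processing, at 0.095. Cpe had 382, 403 and 433 normalized counts in vehicle and 1176, 1320 and 1290 in 4-OHT libraries, so that, as in Anxa10, replicate 1 was the lowest in each group. Slc28a3, a nucleoside transporter, followed at 0.124, Cst6, an inhibitor of cysteine proteases, at 0.133, Inhba, a subunit of activin, at 0.139, and Klk6, a secreted serine protease, at 0.146. Their log2 fold changes were between 1.51 for Inhba and 1.71 for Cst6. No other annexin was among the 5, and since all 6 libraries enter the measure, the likeness is mostly that of the size of the difference between the groups.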

How the data were processed

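RNA-seq libraries of mouse colonic organoids, 3 given 4-OHT and 3 given vehicle, were grouped by the treatment in their labels. The deposited values are a signal, reads per gene that the authors divided by 1 size factor per library. The submitters' processing notes name STAR, DESeq2 and the build GRCm39 (mm39), without versions, and the counting tool, strand setting and annotation are not given in the sources used here. Dividing each library by its smallest step gave whole reads for 100% of values, to within 0.1 reads, and these reads were recovered. Depth was 15804709 to 26957612 reads per library, 1754 rows were at 0 throughout, and 4 symbols stood on several rows, which were kept apart.

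Rows whose normalized counts averaged 10 or more were compared with limma-trend (limma 3.58.1, R 4.3.3) on log2 of the normalized count plus a pseudocount of 1, without covariates, with Benjamini-Hochberg adjustment over 13210 genes and a threshold of 0.05. On this scale the changes of low genes are understated. The procedure was first tested on simulated data. Errors are SD between libraries, or the SE of the fit. Libraries of a group differed by 3.49 to 6.44 times the variance of counting (chi-square per degree of freedom), so none was the same library sequenced again. Whether libraries shared a culture or an RNA sample cannot be told from this, since separate preparations can also vary beyond counting. The floor of 3 reads covers counting error only.

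The members and the gene lists were chosen with earlier results of these data known, and a list's count supports nothing on its own. Genes named were all annexins, all tested partners, the 2 largest rises and the 2 largest falls past the threshold in each other list, the targeted genes and the 5 genes most like Anxa10. A listed gene is not reported here, so the plasminogen list is given without counts. Genes outside this rule (S100a9, Pla2g4a, Pla2g4c, the genes not called in the membrane repair list, and marker genes) were named after their values were seen. Exon lengths and shared stretches of 50 bases came from GENCODE vM21 on GRCm38, and gene positions and promoter windows from RefSeq on GRCm38.p6, which is not the authors' build. No protein sequences were used here. Alternatives were pseudocounts of 0.1 and 10, no filter and a minimum of 50, TMM factors, quantile normalization, the replicate block, edgeR 4.0.16 and DESeq2 1.42.0 on recovered reads, each library left out, and 4-OHT replicates 2 and 3 left out together. Figures and sequence searches used Python 3.11.15.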

Additional observations from a re-analysis of the deposited data

How the results depend on the processing

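The 9 tested members were called higher and 0 lower in the comparison reported, in the fits with each library left out (9 to 9 higher, 0 to 0 lower), and in the other alternatives except 2. With quantile normalization 8 were called, beside 2855 of all 13210 tested genes called higher (2997 in the comparison reported). Anxa4 lost the call there, at 0.04, and without 4-OHT replicates 2 and 3, at 0.15. Over the 16 alternatives the log2 fold change ran from 1.48 to 1.78 for Anxa10, from 0.97 to 1.24 for Anxa1, from 0.83 to 0.90 for Anxa6 and from 0.33 to 0.49 for Anxa2, in each case positive. Anxa9 lay between -0.29 and 0.043 with each library left out, the latter, without vehicle replicate 3, being a reversal, and was called in no alternative. The number of genes changed, 5765, lay between 4939 and 5630 with each library left out and was 3569 without 4-OHT replicates 2 and 3, where 1 library stands for its group and is assumed to vary like the vehicle libraries. No alternative moved the median of all genes by 0.1, and the share of called genes that were higher lay between 50.2% and 53.6%. The same-numbered libraries did not deviate together (correlations -0.0074, 0.030 and -0.020), so no pairing by number was seen. These values cannot show whether same-numbered libraries shared a culture or an animal. The replicate block gave 5637 genes and 9 members higher. The cause of these changes was not tested. Depth limits Anxa13, Anxa9 and Anxa10 most, with 3 to 19 reads per library for Anxa13.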
